A study of Mus musculus with 6 samples.

Results

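The genes described here are 36 p53 target genes and regulators of p53: the gene of p53 itself (Trp53), 4 genes whose products control it, and 31 genes that p53 is known to switch on. They were chosen by name from a list of known direct targets and regulators, and all 36 were among the 24848 gene symbols of the deposited table. The table comes from RNA sequencing of RAW 264.7 cells, a mouse macrophage-like line from a tumour induced by Abelson leukaemia virus, grown in high-glucose medium with serum and with no treatment named in the labels. A total of 3 libraries came from wild-type cells (WT) and 3 from RAW 264.7 cells with an APOBEC1 knockout (KO), each from its own plate. APOBEC1 is a cytidine deaminase that edits C to U in RNA, and the series was made to test a way of measuring such editing. The labels do not say how the knockout was made or how many clones the KO cells came from. Genotype and any further difference between the lines therefore cannot be told apart, and the spread that p-values rest on is that between plates.

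p53 is a transcription factor that is held at a low level by the ubiquitin ligase MDM2 and its partner MDM4. DNA damage and other stresses free it from them, and it then binds pairs of a short palindromic motif near its targets. Its targets stop the cell cycle, start apoptosis and repair DNA, and they include Mdm2 and the phosphatase gene Ppm1d, which close negative feedback loops. Levels of Trp53 mRNA do not report this control, since p53 is set mainly through the stability of its protein.

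Read totals on genes ran from 50493447 to 70411383 per library, and levels are counts per 1000000 reads (CPM). Apobec1 mRNA stood at 373, 431 and 396 CPM in WT and 339, 340.1 and 361 CPM in KO. The groups did not overlap, but the log2 fold change of -0.20 ± 0.07 (SE) missed the threshold (limma adjusted p = 0.0663). Since the labels leave the knockout itself undescribed, this level does not check them. All 12 macrophage markers were detected and tested, with a summed level of 4028 to 4250 CPM in WT and 4264 to 4768 CPM in KO. The sum hides mixed directions: the log2 fold change was positive for 4 markers and negative for 8, with a median of -0.14. Among the 12 markers limma called 2 higher, Lyz2 and Spi1, and 3 lower, Adgre1, Fcgr1 and Mrc1. These are 16.7% and 25% of the markers, against 13.5% and 16.9% of all tested genes. Lyz2, the lysozyme gene, rose from 708 ± 49.0 to 1238 ± 121 CPM (limma adjusted p = 0.000506). Mrc1, the mannose receptor gene, had 65, 119 and 97 reads in WT libraries and 1, 1 and 5 in KO libraries (limma adjusted p = 3.20e-05), and passed the minimum level for testing through WT alone. The part of these marker differences in the results was not tested. Of 22 markers of other cell types, 11 were at 0 reads in every library and the sum of all 22 was 0.435 to 0.712 CPM. In bulk RNA, fewer cells with a transcript and less of it per cell cannot be told apart. Reads of Rn45s, the precursor of ribosomal RNA, made up 2.75%, 0.381% and 2.43% of WT replicates 1, 2 and 3 and 0.542% to 1.40% of the KO libraries.

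Most of the tested p53 genes that differed between the genotypes were higher in KO. Of the 36 members, 31 reached at least 1 CPM in at least 3 libraries and were tested. limma called 17 of them higher, 4 lower and 10 not, at a Benjamini-Hochberg adjusted p under 0.05 over all 10614 tested genes. The shares over every tested gene were 13.5% higher and 16.9% lower, against 54.8% and 12.9% of the tested members. A rise of at least 2-fold was called for 6 members and a fall of that size for 1, against 1.13% and 2.56% of all tested genes. The median log2 fold change, on log2(CPM + 0.5), was 0.34 over the tested members and -0.02 over all tested genes. Cul9, Fas and Phlda3 passed the minimum with the help of the group in which they were high. Among the 28 members at or above 1 CPM in all 6 libraries, 15 were called higher, 3 lower and 10 not.

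On recovered whole reads, edgeR called 18 members higher and 4 lower, against 15.4% and 16.2% of all tested genes. DESeq2 called 20 higher and 4 lower, against 17.6% and 17.8% of all. KO values lay above every WT value in 20 of the 31 tested members and below every WT value in 5, against 20.9% and 25.4% of all tested genes. The median tested member lay 0.33, 0.31 and 0.41 log2 units above its WT mean in KO replicates 1, 2 and 3. The same median over all tested genes was -0.04, -0.04 and 0.0084. The spread within a group was wider for the members than for genes at large: the median coefficient of variation was 11.2% in WT and 7.18% in KO, against 8.54% and 6.05% over all tested genes.

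**Figure D1:**
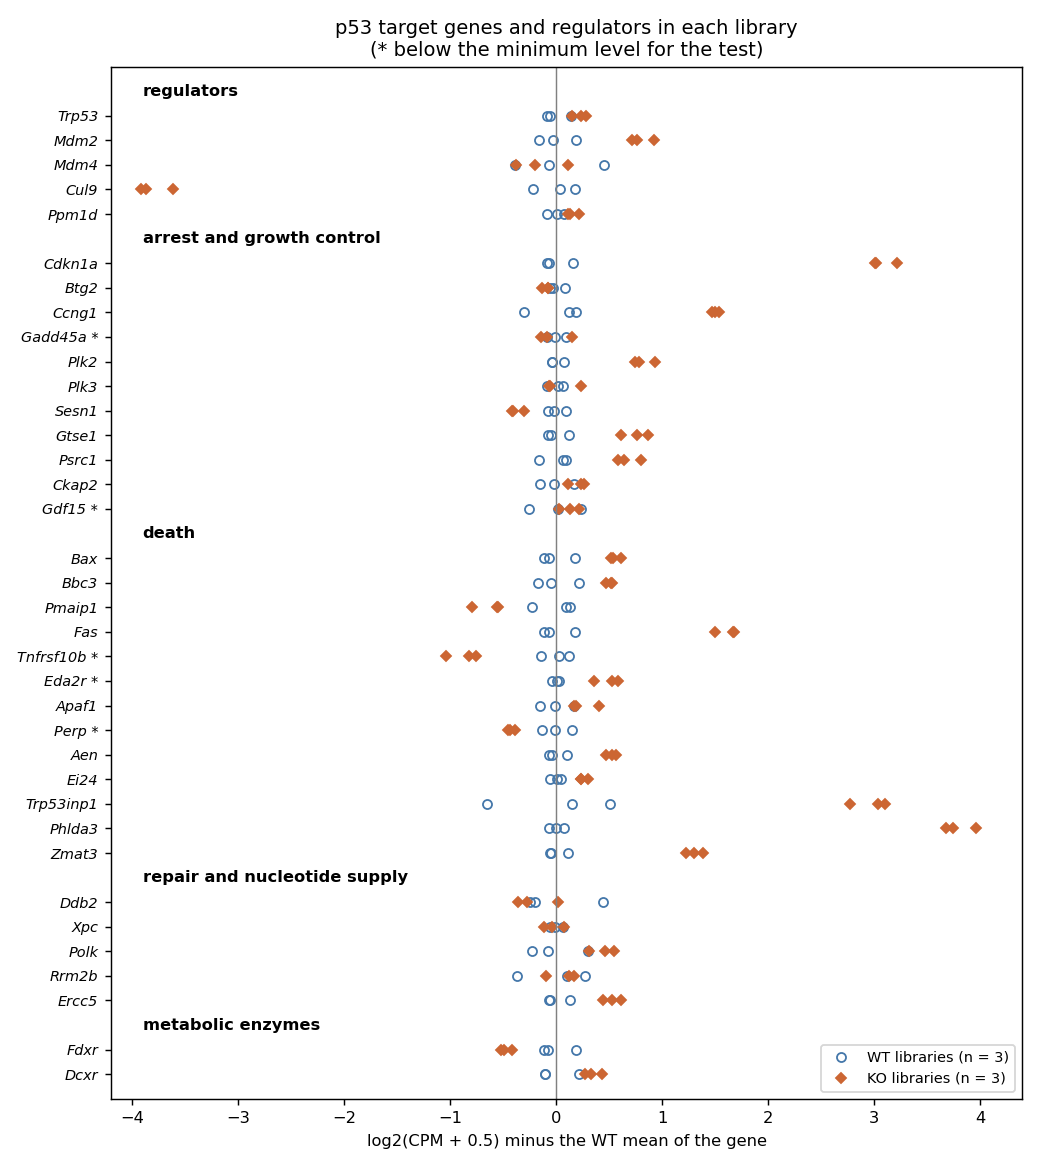
Each row is 1 of the 36 members, grouped by function, and the x axis is log2(CPM + 0.5) minus the mean of the 3 WT libraries. Open circles are WT libraries and filled diamonds KO libraries (3 each), and an asterisk marks the 5 members too low to be tested. Cdkn1a, Phlda3 and Trp53inp1 stood about 3 to 4 units above the WT mean in all KO libraries, and Cul9 as far below it.

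Among the regulators, Cul9 fell and Mdm2 rose, while Trp53, Mdm4 and Ppm1d were not called. Trp53 (ENSMUSG00000059552.13, mm10 chromosome 11, 69580359 to 69591873, plus strand) stood at 187, 159.5 and 163 CPM in WT and 188, 206 and 199 CPM in KO. All KO values lay above the WT values, the lowest KO library barely above WT replicate 1. The means were 169.9 ± 14.9 CPM in WT and 198 ± 9.26 CPM in KO (SD, n = 3 each). The log2 fold change was 0.22 ± 0.08 (SE, 95% interval 0.04 to 0.40, limma adjusted p = 0.0667). The exact two-sided permutation test on CPM gave p = 0.1, the smallest p that groups of 3 can reach. Without WT replicate 1 the difference passed the threshold (log2 fold change 0.29, limma adjusted p = 0.00786). Trp53 stayed uncalled under 16 of 18 alternatives, among them quantile normalization (log2 fold change 0.13, limma adjusted p = 0.315).

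Mdm2 encodes the ligase that marks p53 for degradation and is itself a p53 target. It stood at 53.4, 68.2 and 58.4 CPM in WT and at 102, 98.3 and 114 CPM in KO, so that every KO library was well above every WT library. It rose 1.74-fold, from 60.0 ± 7.49 to 105 ± 8.02 CPM (SD), with a log2 fold change of 0.80 ± 0.10 and a limma adjusted p of 0.000846. Mdm4, whose product binds and blocks the activation domain of p53, stood at 102, 183 and 128 CPM in WT and 116, 103 and 144 CPM in KO. The groups overlapped and WT replicate 2 was the highest of the 6 libraries. The log2 fold change of Mdm4 was -0.16 ± 0.21, with a 95% interval of -0.64 to 0.32 (limma adjusted p = 0.610). WT replicate 2 was also the highest WT library for many other members, among them Trp53inp1, Ddb2, Polk and Rrm2b. This was not particular to a few members. In that library 20 of the 31 tested members lay above their WT mean and 11 below it. Of all 10614 tested genes, 7116 lay above and 3498 below. WT replicate 2 also held the lowest share of Rn45s. The part of that share in these levels was not tested.

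Cul9 (ENSMUSG00000040327.16, mm10 chromosome 17, 46500572 to 46546388, minus strand) encodes a cullin-family protein, also called PARC, known as a cytoplasmic partner of p53. It stood at 16.5, 18.3 and 13.8 CPM in WT, which is 833, 1236 and 805 reads, and at 0.852, 0.636 and 0.600 CPM in KO, which is 60, 38 and 40 reads. The groups lay far apart, and the gene was low but detected in every KO library. It fell 23.3-fold, from 16.2 ± 2.29 to 0.696 ± 0.136 CPM (SD, n = 3 each; log2 fold change -3.80 ± 0.13, limma adjusted p = 1.15e-06). On recovered reads edgeR gave a log2 fold change of -4.50. Ppm1d, the gene of a phosphatase that removes activating phosphates from p53 and its kinases, stood at 32.4 to 36.3 CPM in WT and 37.2 to 40.1 CPM in KO. All KO values were above all WT values, but the log2 fold change of 0.15 ± 0.07 was not called (limma adjusted p = 0.149). It passed in 1 of 18 alternatives, TMM scaling (limma adjusted p = 0.0458).

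**Figure D2:**
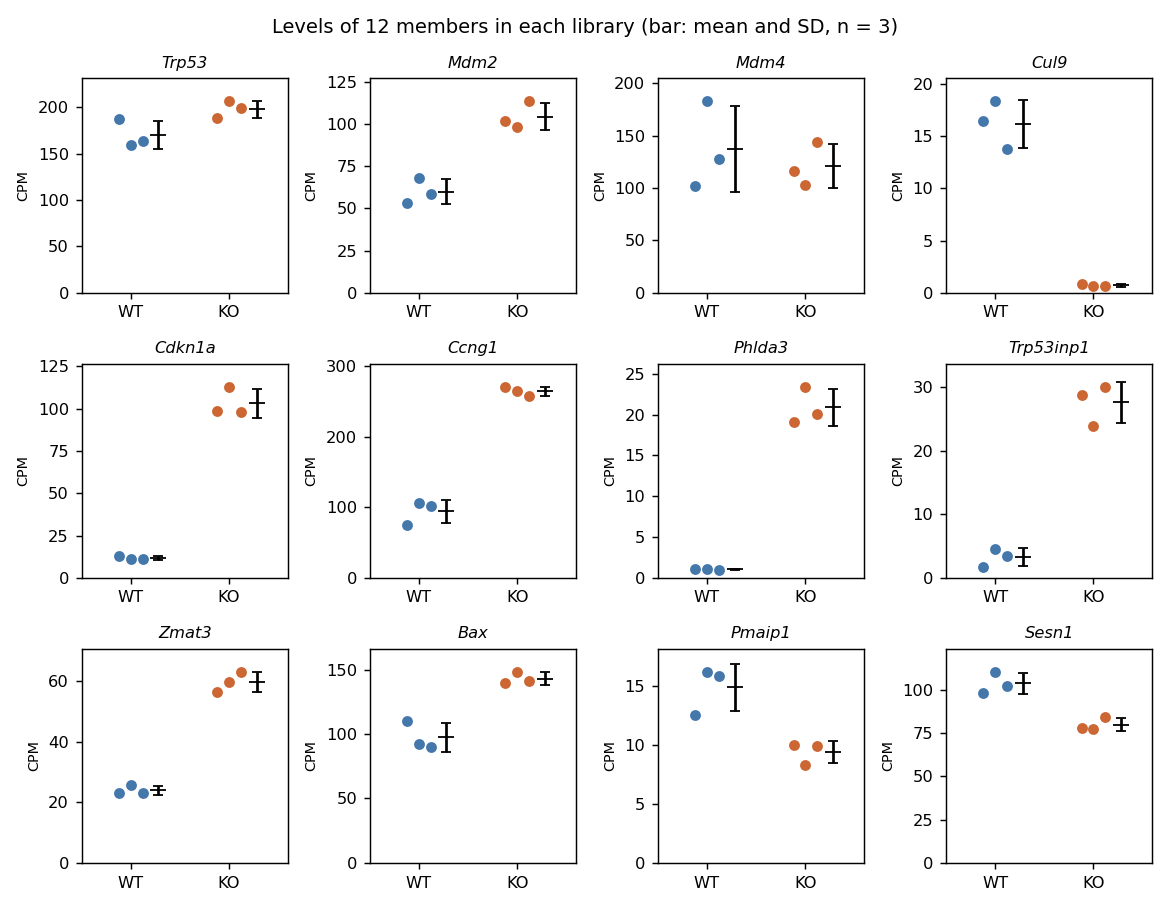
Each panel shows the level of 1 of 12 members in CPM on a linear axis from 0, with points for the 3 WT and 3 KO libraries and a bar at the mean ± SD. WT and KO points are apart in every panel but that of Mdm4, and those of Trp53 are nearly touching.

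The genes of arrest and growth control held the second largest positive log2 fold change among the tested members, that of Cdkn1a. Over the alternatives it ran from 3.01 to 3.16. That of Trp53inp1, a death gene, ran from 2.64 to 3.23, so the order of these genes is not fixed. The arrest group also holds the spindle protein genes Psrc1 and Ckap2. Of its 9 tested members, 5 rose, 1 fell and 3 were not called, or 55.6% higher and 11.1% lower. The shares over all tested genes were 13.5% and 16.9%. The remaining 2 members, Gadd45a and Gdf15, were too low to be tested. Cdkn1a (ENSMUSG00000023067.14, mm10 chromosome 17, 29090976 to 29100727, plus strand) encodes p21, the cyclin-dependent kinase inhibitor through which p53 stops cells before S phase. It stood at 13.1, 11.01 and 11.2 CPM in WT and at 98.4, 113 and 97.8 CPM in KO. The groups were far apart, with the lowest KO library 7.45 times the highest WT library. The log2 fold change was 3.08 ± 0.10 (95% interval 2.86 to 3.30, limma adjusted p = 5.30e-07). A provisional transcript model on the opposite strand, AC167363.2, covers 10.04% of its exon bases, and reads there cannot be assigned because no source says that strand was counted.

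Upstream sequences are shown for Cdkn1a and Ccng1, the members that changed at least 2-fold and hold the 10-base p53 motif near their start. RefSeq windows (GRCm38.p6, the same assembly as mm10) from 250 bases before to 50 after a start were found for 28 of the 36 members, in 38 windows. Trp53inp1 and Zmat3, which also changed at least 2-fold, had no window and were not searched. The windows of Phlda3, Cul9 and Fas held no match. The p53 decamer consensus, a palindrome that reads alike on both strands, was matched in 14 of these windows, or 36.8%, covering 13 members. Over all 32851 windows of that length 8.36% held a match. Both stretches run 5′ to 3′ on the strand of the gene and end at the base before the start, and capitals mark decamers and adjoining pairs of them.
Cdkn1a upstream start, chr17:29090729-29090978, plus strand: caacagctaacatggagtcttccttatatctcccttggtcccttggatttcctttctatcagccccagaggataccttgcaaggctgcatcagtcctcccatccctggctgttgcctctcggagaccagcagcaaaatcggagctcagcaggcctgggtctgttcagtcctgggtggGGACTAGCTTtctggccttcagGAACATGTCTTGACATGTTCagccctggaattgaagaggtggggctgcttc
Ccng1, chr11:40755287-40755536, minus strand: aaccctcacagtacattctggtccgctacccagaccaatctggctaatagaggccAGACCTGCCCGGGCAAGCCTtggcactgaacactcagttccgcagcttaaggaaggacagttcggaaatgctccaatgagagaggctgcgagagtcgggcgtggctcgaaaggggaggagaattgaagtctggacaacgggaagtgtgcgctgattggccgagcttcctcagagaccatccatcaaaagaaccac
The Cdkn1a stretch is that of the upstream of its RefSeq starts. It holds a decamer, then an adjoining pair 12 bases on, beginning 51 bases before the start. The window at the downstream start of Cdkn1a held no match.

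Pairs of decamers with no gap were searched too, allowing at most 2 bases outside the consensus and none at the C and G of the motif core. Only 0.326% of all windows held such a pair, and it was found in windows of Cdkn1a, Ccng1, Gtse1 and Ckap2. These pairs are shown with the 4-base core of each decamer in capitals.
Cdkn1a, chr17:29090928-29090947, plus strand, 1 base outside the consensus: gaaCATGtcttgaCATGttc
Ccng1, chr11:40755462-40755481, minus strand, 1 base outside the consensus: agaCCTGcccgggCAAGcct
Gtse1, chr15:85859945-85859964, plus strand, 1 base outside the consensus: gagCAAGttggggCTTGcct
Ckap2, chr8:22186003-22186022, minus strand, 2 bases outside the consensus: agaCATGtcctgaCTTGtca
Of these 4 genes, the first 3 rose in KO and limma did not call Ckap2. A match is a description of the sequence and not a measured binding site, and p53 sites in introns or farther upstream lie outside these windows.

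Ccng1, cyclin G1, which recruits a phosphatase to MDM2, stood at 75.1, 106 and 101 CPM in WT and at 271, 264 and 258 CPM in KO. It rose 2.81-fold (log2 fold change 1.502 ± 0.12, limma adjusted p = 8.95e-05), and WT replicate 1 was the lowest library. Plk2, a polo-like kinase induced by stress, rose 1.78-fold to 82.6 ± 5.93 CPM. Its relative Plk3 stood at 4.62 to 5.19 CPM in WT and 4.67 to 5.87 CPM in KO, with overlapping groups. Gtse1, whose product binds p53 and shuttles it out of the nucleus in G2, rose 1.70-fold, from 26.7 ± 2.10 to 45.2 ± 4.13 CPM (limma adjusted p = 0.000766). Psrc1, a spindle protein gene, rose 1.61-fold (limma adjusted p = 0.00159).

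Ckap2, which encodes another spindle protein, stood at 46.4 to 57.8 CPM in WT and 55.8 to 61.7 CPM in KO. The groups overlapped and the log2 fold change of 0.20 ± 0.09 was not called (limma adjusted p = 0.135). It passed in 3 of 18 alternatives: in DESeq2, with TMM scaling and without WT replicate 2 (adjusted p = 0.0404, 0.0385 and 0.0381). Btg2, an antiproliferative p53 target, stood at 35.2 to 38.7 CPM in WT and 33.4 to 34.7 CPM in KO, with a log2 fold change of -0.09 ± 0.07 (limma adjusted p = 0.342). Sesn1, a sestrin that restrains mTORC1, went the other way from Cdkn1a. It fell from 98.4, 111 and 102 CPM in WT to 78.2, 77.7 and 84.1 CPM in KO (log2 fold change -0.37 ± 0.07, limma adjusted p = 0.00547). The arrest gene Gadd45a had 54 to 77 reads in each library and overlapping groups. An antisense transcript, E230016M11Rik, covers 19.5% of its exon bases. The stress cytokine gene Gdf15 had 5 to 23 reads in WT libraries and 16 to 22 in KO libraries.

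Of the 10 tested genes of cell death and survival, 8 rose, 1 fell and 1 was not called, and 3 were too low to be tested. The shares called higher and lower were 80% and 10%, against 13.5% and 16.9% of all tested genes. Phlda3 (ENSMUSG00000041801.5, mm10 chromosome 1, 135766119 to 135769136, plus strand) encodes a pleckstrin-domain protein that blocks Akt at the membrane and so favours apoptosis. It had 52, 75 and 56 reads in WT libraries, or 1.03, 1.11 and 0.959 CPM, and 1345, 1402 and 1340 reads in KO libraries, or 19.1, 23.5 and 20.1 CPM. The log2 fold change of 3.80 ± 0.10 was the largest positive one among the 31 tested members (limma adjusted p = 4.09e-07). Trp53inp1, a nuclear protein gene that promotes p53-dependent death and autophagy, stood at 1.76, 4.57 and 3.44 CPM in WT and 28.7, 23.9 and 30.1 CPM in KO. Its WT libraries differed among themselves by up to 2.59-fold, less than the gap to the KO libraries (log2 fold change 2.97 ± 0.27, limma adjusted p = 0.000144).

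Zmat3, an RNA-binding protein gene, stood at 22.9, 25.8 and 23.0 CPM in WT and 56.3, 59.6 and 63.1 CPM in KO, without overlap (log2 fold change 1.303 ± 0.08, limma adjusted p = 1.81e-05). Fas, the death receptor of the TNF receptor family, had 20, 25 and 33 reads in WT libraries and 175, 129 and 167 in KO libraries, or 0.396, 0.371 and 0.565 CPM against 2.49, 2.16 and 2.51 CPM. The ratio of the mean CPM values was 5.37, and the log2 fold change on log2(CPM + 0.5) was 1.61 ± 0.12 (limma adjusted p = 5.76e-05). At this low level the size depends on the pseudocount: the log2 fold change was 1.23 with a pseudocount of 1, 2.21 with 0.1 and 2.45 in edgeR. The mitochondrial death genes moved less. Bax, the pore-forming effector, rose 1.47-fold from 97.4 ± 10.996 to 143 ± 4.75 CPM, with no overlap (limma adjusted p = 0.00226). Another gene model, Gm45808, shares 22.1% of its exon bases on the same strand. Bbc3, which encodes PUMA, rose 1.43-fold from 12.9 ± 1.87 to 18.4 ± 0.408 CPM (limma adjusted p = 0.00943).

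Pmaip1, which encodes NOXA, another BH3-only activator of mitochondrial death, moved against Bax and Bbc3. It stood at 12.6, 16.2 and 15.9 CPM in WT and at 9.98, 8.33 and 9.89 CPM in KO, all KO libraries below all WT libraries. It fell with a log2 fold change of -0.63 ± 0.12 (limma adjusted p = 0.00630). Aen, an apoptosis-enhancing nuclease gene, rose 1.44-fold and Ei24, an endoplasmic reticulum protein gene, 1.197-fold. Without KO replicate 1 or KO replicate 2, and with a replicate block, the rise of Ei24 missed the threshold, with a highest limma adjusted p of 0.0813 over the alternatives. Apaf1, the scaffold of the apoptosome, stood at 47.0 to 58.8 CPM in WT and 58.8 to 69.6 CPM in KO and was not called (log2 fold change 0.25 ± 0.10, limma adjusted p = 0.101). It passed in 4 of 18 alternatives: edgeR, DESeq2, TMM scaling and the run without WT replicate 2 (adjusted p = 0.0375, 0.0173, 0.0273 and 0.0319).

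The 3 death genes under the minimum level differed in direction. Tnfrsf10b, the receptor for the death ligand TRAIL, had 42, 67 and 64 reads in WT libraries and 26, 13 and 22 in KO libraries. Perp, a desmosomal protein gene, had 9, 22 and 14 reads in WT libraries and 5, 3 and 3 in KO libraries. Both were lower in every KO library. Eda2r, a receptor of the ectodysplasin family, had 1, 3 and 2 reads in WT libraries and 21, 11 and 18 in KO libraries. From pooled reads the KO to WT ratio of Eda2r was 7.46, with a 95% interval of 3.20 to 21.3 that covers counting error only. The WT to KO ratio was 3.17 (2.35 to 4.31) for Tnfrsf10b and 4.57 (2.33 to 9.79) for Perp, with exact binomial intervals. With no minimum level, limma called Tnfrsf10b and Perp lower (adjusted p = 0.00127 and 0.00540) and Eda2r higher (adjusted p = 0.00144). In that run 1462 of all 17165 genes were called higher and 2035 lower. Gadd45a and Gdf15 were not called there (adjusted p = 0.913 and 0.534).

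**Figure D3:**
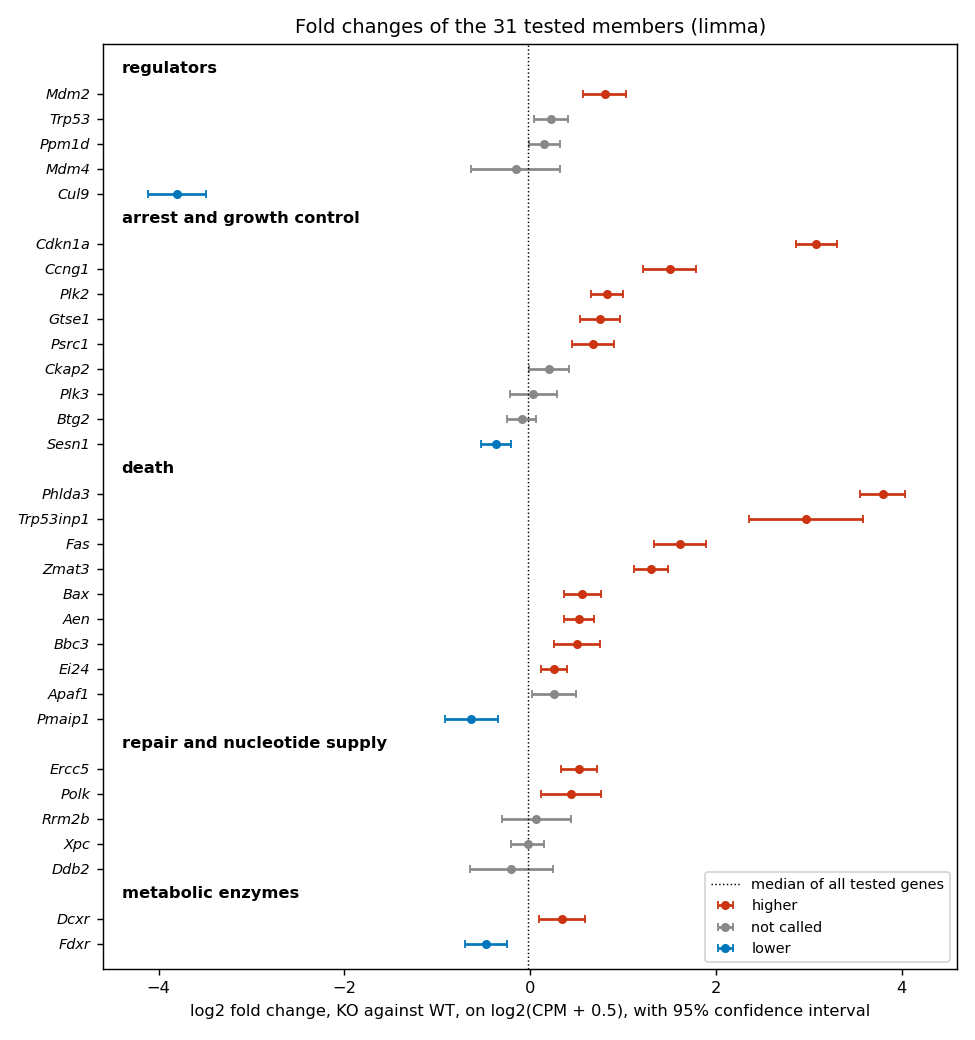
Points are log2 fold changes of KO against WT on log2(CPM + 0.5) for the 31 tested members, with 95% confidence intervals from limma, coloured by call (17 higher, 4 lower, 10 not called). The dotted line is the median of all tested genes, -0.02, and the called members of the death group other than Pmaip1 lie to its right.

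Of the 5 genes of DNA repair and nucleotide supply, 2 rose, 3 were not called and limma called 0 lower. The shares were 40% and 0%, against 13.5% and 16.9% of all tested genes. At an unadjusted p under 0.05, 0 were lower in limma, edgeR or DESeq2. Of all 10614 tested genes, 2476, 2319 and 2291 were lower at that cutoff in these tools. Ercc5, the endonuclease XPG of nucleotide excision repair, stood at 26.7, 30.5 and 26.4 CPM in WT and 40.4, 38.0 and 42.9 CPM in KO. The groups were apart, with a rise of 1.45-fold (log2 fold change 0.53 ± 0.08, limma adjusted p = 0.00252). Polk, a translesion DNA polymerase, stood at 11.4, 16.8 and 12.8 CPM in WT and 18.7, 16.9 and 19.96 CPM in KO. Its groups almost met, and the call was near the threshold (log2 fold change 0.44 ± 0.14, limma adjusted p = 0.0476). It was lost under 8 of 18 alternatives, among them the runs without WT replicate 1, WT replicate 3 and each KO replicate.

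The damage sensors of nucleotide excision repair and the p53-induced subunit of ribonucleotide reductase had overlapping groups. Ddb2 stood at 5.91 to 9.82 CPM in WT and 5.42 to 7.19 CPM in KO. It lies on chromosome 2, where the median over 856 tested genes was 0.34 on that scale, and 26.7% of its exon bases overlap Acp2 on the opposite strand. Xpc stood at 27.7 to 30.3 CPM in WT and 26.6 to 30.4 CPM in KO. It lies on chromosome 6, where the median of 517 tested genes was -0.16. Rrm2b stood at 16.5 to 25.9 CPM in WT and 20.01 to 24.2 CPM in KO. The 95% intervals of the log2 fold change were -0.65 to 0.25 for Ddb2, -0.21 to 0.15 for Xpc and -0.31 to 0.44 for Rrm2b, and changes beyond these bounds lie outside the intervals.

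The 2 metabolic targets moved in opposite directions. Fdxr, ferredoxin reductase of the mitochondria, stood at 28.2, 23.3 and 22.7 CPM in WT and 17.0, 18.4 and 17.3 CPM in KO. All KO libraries were lower, and it fell with a log2 fold change of -0.47 ± 0.10 (limma adjusted p = 0.00831). Dcxr, a dicarbonyl and xylulose reductase, stood at 20.5, 16.3 and 16.3 CPM in WT and 22.2, 23.8 and 21.3 CPM in KO. Its KO libraries were all higher (log2 fold change 0.34 ± 0.11, limma adjusted p = 0.0424). That call was lost under 8 of 18 alternatives, among them the runs without WT replicate 2, WT replicate 3 and each KO replicate.

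Per length, Bax and Trp53 were the most abundant members in both genotypes. Levels here are CPM per kilobase of the longest coding transcript in GENCODE M21. Bax stood at 112 in WT and 165 in KO and Trp53 at 91.0 and 106. Cdkn1a went from 5.66, 21st of the 36, to 49.6, 4th of the 36. Phlda3 went from 0.720 to 14.6 (30th to 14th), and Trp53inp1 from 0.603 to 5.10 (31st to 24th). Cul9 dropped from 2.07 to 0.0887 (28th to 34th). Ranks between neighbours can change with the transcript chosen for the length.

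Other genes of the pathway were taken from lists of known function. Of 40 tested further p53 targets, 11 rose, 5 fell and 24 were not called. The shares were 27.5% higher and 12.5% lower, against 13.5% and 16.9% of all tested genes. The median log2 fold change was 0.09, against -0.02 over all tested genes. Of the 4 on chromosome 2, where the median over 856 tested genes was 0.34, 3 rose. Of the 36 on other chromosomes 8 rose, with a median of 0.06. The number called lower was 3 without KO replicate 1, KO replicate 3 or WT replicate 3 and 8 without WT replicate 1. Ak1, an adenylate kinase, rose 12.1-fold from 0.290 ± 0.0750 to 3.51 ± 0.134 CPM, or from 14, 25 and 13 reads to 251, 216 and 224, and passed the minimum level through KO alone. Sesn2, a relative of Sesn1 that ATF4 also induces, rose 2.41-fold to 35.5 ± 3.80 CPM, against the fall of Sesn1. Ephx1, an epoxide hydrolase, rose 1.72-fold to 109 ± 5.84 CPM. Cmbl, a hydrolase gene, fell 3.67-fold from 4.93 ± 0.113 to 1.35 ± 0.0811 CPM. This list also holds Trp53rka and Trp53rkb, which encode kinases of p53 rather than targets, and Trp53rkb was among those that rose.

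Genes that act on p53 from upstream were called near the background share in both directions. Of 36 tested kinases, acetylases, ligases and binding partners, 4 rose and 5 fell, with a median of 0.03. The shares were 11.1% and 13.9%, against 13.5% and 16.9% of all tested genes. These counts are not stable: 1 was called higher without any 1 of the KO replicates and with a replicate block, and 1 lower without KO replicate 3, with TMM scaling and with the block. The number called lower was 2 or 3 without any other single library and 2 in edgeR. Genes of ribosomal proteins that bind MDM2 were among those that fell, Rpl5 from 1583 ± 28.6 to 1231 ± 103 CPM and Rpl23 from 1501 ± 61.1 to 1228 ± 53.9 CPM. Ribosomal protein genes have many processed pseudogenes, so reads shared with such copies make these levels uncertain. Trp53bp1, which encodes the damage-response protein 53BP1, rose 1.31-fold, and Ppp1r13l, which encodes the p53 inhibitor iASPP, 1.37-fold. The damage kinase genes Atm, Chek1 and Chek2 were not called (limma adjusted p = 0.447, 0.313 and 0.111). Cdkn2a, the source of the MDM2 inhibitor p19Arf, had 0 or 1 read in each library. The p53 relatives Trp63 and Trp73 had at most 3 reads in any library and were not tested.

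Cell cycle genes known to be lowered through p53, p21 and the DREAM repressor complex were not lower in KO. Of 30 tested, 14 rose and limma called 0 lower, with a median log2 fold change of 0.23. The shares were 46.7% and 0%, against 13.5% and 16.9% of all tested genes. At an unadjusted p under 0.05, 0 were lower in limma, edgeR or DESeq2. Of all 10614 tested genes, 2476, 2319 and 2291 were lower at that cutoff in limma, edgeR and DESeq2. Aurka, a mitotic kinase, rose from 113 ± 8.39 to 185 ± 6.29 CPM. Bub1b and Mybl2 rose 1.46-fold and 1.63-fold. These 3 lie on chromosome 2, where the median over all tested genes was 0.34, and all 6 genes of this list on that chromosome rose. Of the 24 on other chromosomes, 8 rose and limma called 0 lower, with a median of 0.18. Of the p53 members, 0 of those that were called lie on chromosome 2.

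**Figure D4:**
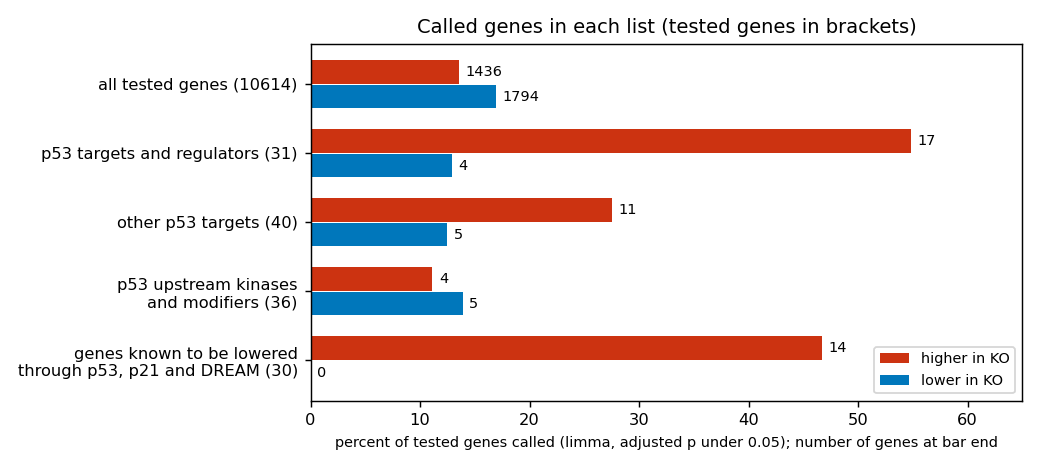
Bars give the percent of tested genes called higher (upper bar) and lower (lower bar) in KO by limma at an adjusted p under 0.05, for all tested genes and 4 lists, with the number of genes at the end of each bar and the number tested in brackets. The p53 targets and regulators had the largest share called higher of the 5 (54.8%), and the upstream genes lay near all tested genes on both sides.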

How the data were processed

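Poly(A) RNA of RAW 264.7 cells was sequenced as paired-end reads of 125 bases, per the labels' protocols. The submitters' processing notes name Trim Galore, FastQC, STAR 2.6.0a, Picard, SAMtools and the build mm10, and duplicates were removed from the alignments, per the file headers. The counting program, its annotation and any strand setting stay not given in the sources used here. CPM was the unit that the authors deposited. Values were whole multiples of 1 read in 100% of cases (tolerance 0.01 of a read), so reads were recovered. A count of 0 allows up to 3 reads, or 0.0426 to 0.0594 CPM, and covers counting error only.

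Genes that reached 1 CPM in 3 or more libraries entered limma 3.58.1 (R 4.3.3) as log2(CPM + 0.5) (eBayes with trend, no covariates, Benjamini-Hochberg over all 10614). Trp53 also had an exact permutation test (scipy 1.17.1). Alternatives were other pseudocounts, minimums, scalings and eBayes settings, edgeR 4.0.16 and DESeq2 1.42.0 on recovered reads, a replicate block and leaving out each library. Coordinates, lengths and overlaps come from GENCODE M21. All members are accounted for. Per-library values are given for those changed at least 2-fold, for Trp53, Mdm2 and Mdm4 and for called members of groups with no such member, and up to 4 called genes are named per other list, of which 1 is not reported here. Pmaip1, Sesn1, Tnfrsf10b, Perp and Eda2r were given per library after their values were seen, and Atm, Chek1, Chek2, Cdkn2a, Trp63, Trp73 and Trp53rkb were named then. The members and lists were chosen with earlier results of these data known. Protein sequences were not used here.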

Additional observations from a re-analysis of the deposited data

How the results depend on the processing

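Of the 21 called members, 18 kept their call under every alternative in which they were tested. For Fas these were 17 of the 18, since it lay below the minimum of 5 CPM. The calls of Ei24, Polk and Dcxr were lost under some. No called member changed direction under any of them. The members called higher numbered 14 to 18 when each library was left out, and 4 were called lower each time. Over all 10614 tested genes these runs called 957 to 1662 higher and 1016 to 2099 lower. The fewest were without KO replicate 1 and the most without WT replicate 1. Same-numbered WT and KO libraries did not deviate together from their group means (correlations across genes -0.25, -0.64 and -0.17), so the numbers were not taken as pairs. Some differently numbered libraries did: WT replicate 2 with KO replicate 3 (0.61) and WT replicate 1 with KO replicate 2 (0.58). The lowest of these correlations was -0.44, for WT replicate 1 with KO replicate 3. With a replicate block 14 members were called higher and 4 lower, the log2 fold change of Trp53 was 0.22, and 2009 genes were called in all, against 3230. Without KO replicate 1 the total was 1973. Of the 10 uncalled members, Trp53, Apaf1, Ckap2 and Ppm1d passed under at least 1 alternative. Trp53 passed under DESeq2 (log2 fold change 0.25, adjusted p = 0.0359), and its log2 fold change was 0.18 to 0.29 when each library was left out. Some uncalled members changed sign. Ddb2 went to 0.0015 and Xpc to 0.017 under quantile normalization, and Xpc to 0.019 with TMM scaling. Over the runs without 1 library the log2 fold changes were -0.35 to 0.069 for Mdm4, -0.065 to 0.0845 for Plk3, -0.32 to 0.021 for Ddb2, -0.079 to 0.015 for Xpc and -0.12 to 0.20 for Rrm2b. The 5 untested members had at most 77 reads in any library. With no minimum level limma called 3 of them, and 3497 of all 17165 genes.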

Other observations

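The genes next to the 3 members with the largest absolute changes were looked up after those changes were seen, as the nearest tested protein-coding gene on each side in GENCODE M21. Cul9 lies between Dnph1 and Srf on chromosome 17. Dnph1 had mean levels of 42.7 ± 2.44 (WT) and 44.3 ± 1.98 (KO) CPM (SD, n = 3 each) and a log2 fold change of 0.05 ± 0.07 (limma adjusted p = 0.621). Srf stood at 52.5 ± 5.61 and 56.0 ± 3.11 CPM (log2 fold change 0.10 ± 0.09, limma adjusted p = 0.459). Neither neighbour of Cul9 was called. Cdkn1a lies between Srsf3, which was not called (log2 fold change 0.11 ± 0.10, limma adjusted p = 0.445), and Ppil1, which rose from 47.8 ± 4.16 to 57.7 ± 2.48 CPM (limma adjusted p = 0.0359). Phlda3 lies between Csrp1, at 107 CPM in both genotypes, and Tmem9, which fell from 37.3 ± 2.98 to 26.5 ± 2.69 CPM (limma adjusted p = 0.00754).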
